A study of Mus musculus with 6 samples.

Results

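The poly-ADP-ribose polymerase (PARP) family was described here through 9 genes, the rows of the deposited expression table named Parp1, Parp2, Parp8, Parp9, Parp10, Parp11, Parp12, Parp14 and Dtx3l, out of 56748 genes in the table. Parp9, Parp10, Parp11, Parp12, Parp14 and Dtx3l form an interferon-responsive subgroup of 6 genes, named so from general knowledge, and are set against Parp1, Parp2 and Parp8. The libraries come from a mouse cell line with macrophage properties, RAW264.7. In 3 libraries the cells had been infected with a lentivirus carrying Fbxw11 (the construct pMSCV-Fbxw11-pGk-GFP), and in 3 with a control vector whose content is not described beyond the library names, GFP. Per the labels, both groups consisted of sorted cells, and no other treatment is named. Whether the 3 libraries within a group stem from different infections or cultures is not said, so the p-values measure library-to-library spread alone, which may be technical.

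PARP enzymes transfer ADP-ribose from NAD to proteins and nucleic acids. Parp1 and Parp2 build long chains of it at DNA breaks and thereby recruit repair factors, whereas most other members attach single ADP-ribose units or, as has been described for Parp9, act mainly through partners. Several of the latter are induced by interferon in macrophages, and Parp9 works in a complex with the ubiquitin ligase Dtx3l, which is not itself a PARP.

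Fbxw11, an F-box protein that selects substrates for an SCF ubiquitin ligase, was measured first as a check of the labels. It stood at 36.1 ± 0.409 FPKM (fragments per kilobase of gene, scaled to library size; SD, n = 3) in control and 271 ± 2.74 FPKM in Fbxw11 libraries, where vector and endogenous transcripts cannot be told apart. Between 16191971 and 18951653 reads per library lay behind the table. Of 10 macrophage markers 9 reached a mean of 1 FPKM, and the exception, Mertk, had at most 1 read in a library. Of the 9, 4 rose (Adgre1, Itgam, Lyz2 and Fcgr1) and 0 fell, and 2 rose without the libraries numbered 3. Among all 10898 tested genes, limma called 4.6% higher and 4.64% lower in the Fbxw11 libraries at an adjusted p under 0.05. Group ranges were separate for 7 higher markers and 1 lower one, where the shares of all tested genes were 15.6% and 15.5%. The lower one was Csf1r, named after its value was seen (log2 fold change -0.07, limma adjusted p = 0.290). Adgre1 and Itgam passed in 16 of 16 alternatives, whereas Lyz2 and Fcgr1 passed in 4 each and in none that left out a single library (adjusted p 0.0713 to 0.181 for Lyz2 and 0.0642 to 0.125 for Fcgr1). Summed over the macrophage markers, control libraries held 4224 to 4398 FPKM and Fbxw11 libraries 4681 to 4806 FPKM. Lyz2 was the largest term of this sum, with group means of 2346 (control) and 2628 FPKM (Fbxw11). The part of the shift in this sum in the results below was not tested. Among markers of other cells, fibroblast genes summed to at most 0.378 FPKM and epithelial genes to at most 0.102 FPKM. Of 7 T cell genes Lck alone averaged at least 1 FPKM, and Cd3g, Cd8a and Trac were at 0 reads. The 5 B cell genes summed to 7.19 to 8.04 FPKM in control and 5.45 to 7.26 FPKM in Fbxw11 libraries. The 2 libraries numbered 3 stood apart from the other 4 on the second principal component (23.7% of the variance), so member counts are also given without them.

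All 9 genes had reads in each library, over a wide range of levels, and the 8 tested below had 642 to 6698 reads per library. As FPKM, which is per gene length, and averaged over the 6 libraries, Parp12 was highest at 66.9 FPKM, followed by Parp9 at 54.4, Parp14 at 38.1, Parp1 at 35.8, Parp10 at 29.6, Dtx3l at 23.4, Parp2 at 11.03 and Parp11 at 6.05 FPKM. Parp8 was far below the others at 0.226 FPKM. Each neighbouring pair in this order had ranges over the 6 libraries that did not overlap, except Parp14 and Parp1. In the control libraries Parp14 lay wholly below Parp1 (at most 37.1 against at least 37.2 FPKM). In the Fbxw11 libraries Parp14 lay above Parp1 in each library. Parp12 and Parp9 together therefore made up the largest shares of the summed FPKM of the 9 genes, 24.9% and 20.3% in control and 25.4% and 20.7% in Fbxw11 libraries.

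**Figure D1:**
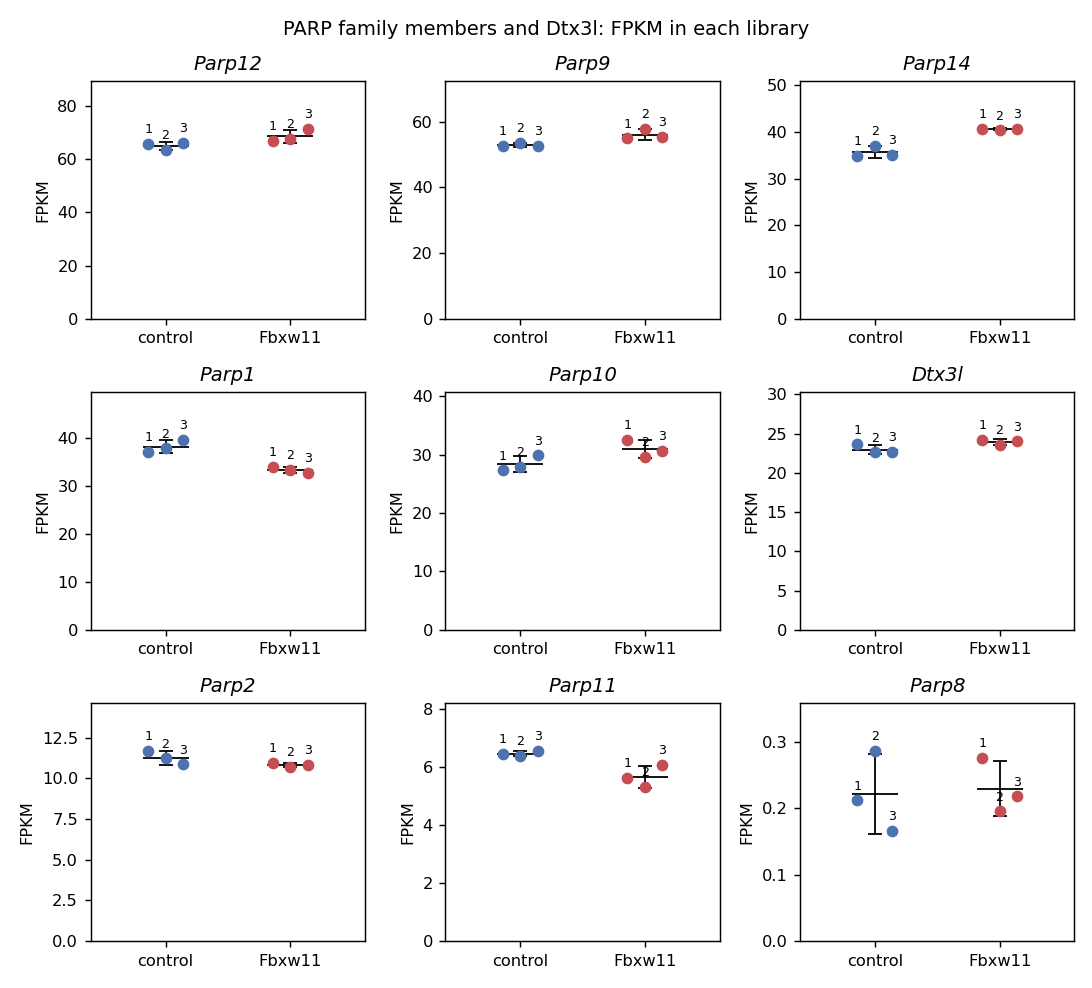
FPKM of each of the 9 genes (vertical axes start at 0) in the 3 control and 3 Fbxw11 libraries; points are libraries labelled with their replicate number, and the horizontal line and bars are the mean and SD. Parp14, Parp9 and Parp12 lie higher in every Fbxw11 library than in any control library, Parp1 and Parp11 lie lower, and the groups overlap for the other 4 genes.

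Of the 8 members that reached a mean of 1 FPKM and were tested, 1 rose (Parp14) and 1 fell (Parp1) at an adjusted p under 0.05, by limma on log2(FPKM + 1) with Benjamini-Hochberg adjustment over all 10898 genes tested. In the same fit 9.24% of all tested genes were called, 4.6% higher and 4.64% lower in the Fbxw11 libraries (501 and 506 genes, against 348 and 712 on the TPM scale and 381 and 691 over plain read sums). Groups did not overlap for 3 members that were higher and 2 that were lower, where 15.6% and 15.5% of all tested genes did so. Without the libraries numbered 3, 0 members passed, and 0 passed with the replicate number as a block. In a bulk sample, fewer cells expressing a gene and less RNA per cell cannot be told apart.

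Parp1, which senses DNA strand breaks and makes most of the poly-ADP-ribose in a cell, was the member that fell. It stood at 37.2, 37.9 and 39.7 FPKM in control libraries 1 to 3 and at 34.02, 33.4 and 32.8 FPKM in Fbxw11 libraries 1 to 3, from 2933 to 3854 reads per library. Each Fbxw11 library lay below each control library, and the mean was 1.15-fold lower (log2 fold change -0.19, SE 0.037, limma adjusted p = 0.0250). The call was lost when any single library was left out: the adjusted p was 0.0586, 0.0895 and 0.0621 without control library 1, 2 or 3 and 0.0581, 0.0845 and 0.0624 without Fbxw11 library 1, 2 or 3. The log2 fold change stayed between -0.21 and -0.16 in these 6 fits. They had fewer libraries and called 410 to 801 genes in all, against 1007 with every library.

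Parp2, the related enzyme that also acts at single-strand breaks, did not pass. Its values were 11.7, 11.2 and 10.8 FPKM in control and 10.9, 10.7 and 10.8 FPKM in Fbxw11 libraries, with overlapping groups (log2 fold change -0.05, 95% interval -0.15 to 0.04, limma adjusted p = 0.488). Parp8, a mono-ADP-ribosyltransferase, was under the filter and was not tested. It had 31, 49 and 25 reads in control and 40, 31 and 33 in Fbxw11 libraries. The group values were 0.222 ± 0.0611 and 0.230 ± 0.0418 FPKM, with overlap, and so few reads limit what can be said of Parp8.

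The start region of Parp1 is shown because Parp1 is one of the 2 members past the threshold. It spans 250 bases before to 50 bases after the annotated start in RefSeq, at chr1:180568641-180568940 on the forward strand of GRCm38.p6, and is 62% G and C, where the median over 32851 such windows is 52.7%.
Parp1: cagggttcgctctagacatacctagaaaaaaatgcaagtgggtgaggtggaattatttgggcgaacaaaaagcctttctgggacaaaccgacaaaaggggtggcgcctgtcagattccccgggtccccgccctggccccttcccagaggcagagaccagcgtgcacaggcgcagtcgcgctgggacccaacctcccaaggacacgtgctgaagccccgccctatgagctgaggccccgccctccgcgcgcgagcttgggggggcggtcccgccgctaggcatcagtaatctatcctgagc
It held no match to 2 forms of the E2F site, TTTCCCGC and TTTGGCGC, searched on both strands, which occur in 1.07% and 0.514% of all windows, nor to the interferon motifs given below.

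Among the interferon-responsive genes, 5 of 6 had positive log2 fold changes, where 5546 of all 10898 tested genes did. Parp14 was the one that passed. Parp14 carries several ADP-ribose-binding macrodomains and modifies proteins with single ADP-ribose units. It stood at 34.8, 37.1 and 35.01 FPKM in control and at 40.7, 40.3 and 40.6 FPKM in Fbxw11 libraries, from 5323 to 6698 reads per library. The 3 Fbxw11 values lay close together and above each control value, with a mean 1.14-fold higher (log2 fold change 0.18, SE 0.035, limma adjusted p = 0.0254). In absolute log2 fold change Parp14 ranked 2203 and Parp1 2051 among the 10898 tested genes.

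The call of Parp14 was likewise lost in most of the fits with a single library left out, which called fewer genes in all. Its adjusted p was 0.1004 and 0.0721 without control library 1 or 3, 0.0767, 0.0810 and 0.0601 without Fbxw11 library 1, 2 or 3, and 0.0439 without control library 2. On the TPM scale, where each library has the same sum, the adjusted p was 0.0504 (log2 fold change 0.14). Its log2 fold change was positive in each of the 16 alternative fits, between 0.14 and 0.21.

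Parp9, whose macrodomains bind ADP-ribose and which forms a complex with Dtx3l, measured 52.6, 53.6 and 52.5 FPKM in control and 54.9, 57.9 and 55.2 FPKM in Fbxw11 libraries. The groups did not overlap, but the difference was small and did not pass (log2 fold change 0.08, 95% interval 0.0012 to 0.16, limma adjusted p = 0.198). Dtx3l, its ubiquitin ligase partner, measured 23.6, 22.6 and 22.7 FPKM in control and 24.2, 23.6 and 23.998 FPKM in Fbxw11 libraries. The lowest Fbxw11 value lay just under the highest control value (log2 fold change 0.06, 95% interval -0.02 to 0.14, limma adjusted p = 0.353).

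Parp12, a zinc finger PARP with antiviral activity, was the most abundant of the 9 genes. It measured 65.8, 63.4 and 66.1 FPKM in control and 66.7, 67.6 and 71.5 FPKM in Fbxw11 libraries, without overlap but also without passing the test (log2 fold change 0.07, 95% interval -0.02 to 0.17, limma adjusted p = 0.294). Parp10, another mono-ADP-ribosyltransferase, measured 27.3, 27.9 and 29.9 FPKM in control and 32.5, 29.5 and 30.6 FPKM in Fbxw11 libraries. Fbxw11 library 2 lay below control library 3, so the groups overlapped (log2 fold change 0.12, 95% interval -0.0023 to 0.24, limma adjusted p = 0.211).

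Parp11 attaches single ADP-ribose units and has been described to modify beta-TrCP, the F-box protein pair to which Fbxw11 belongs, which acts in turnover of the type I interferon receptor. Its log2 fold change was the negative one among the 6. It measured 6.44, 6.36 and 6.55 FPKM in control and 5.61, 5.30 and 6.06 FPKM in Fbxw11 libraries, from 642 to 859 reads per library. Each Fbxw11 value was below each control value, and the difference did not pass (log2 fold change -0.16, 95% interval -0.29 to -0.04, limma adjusted p = 0.112, and between 0.0531 and 0.250 in 16 alternatives).

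**Figure D2:**
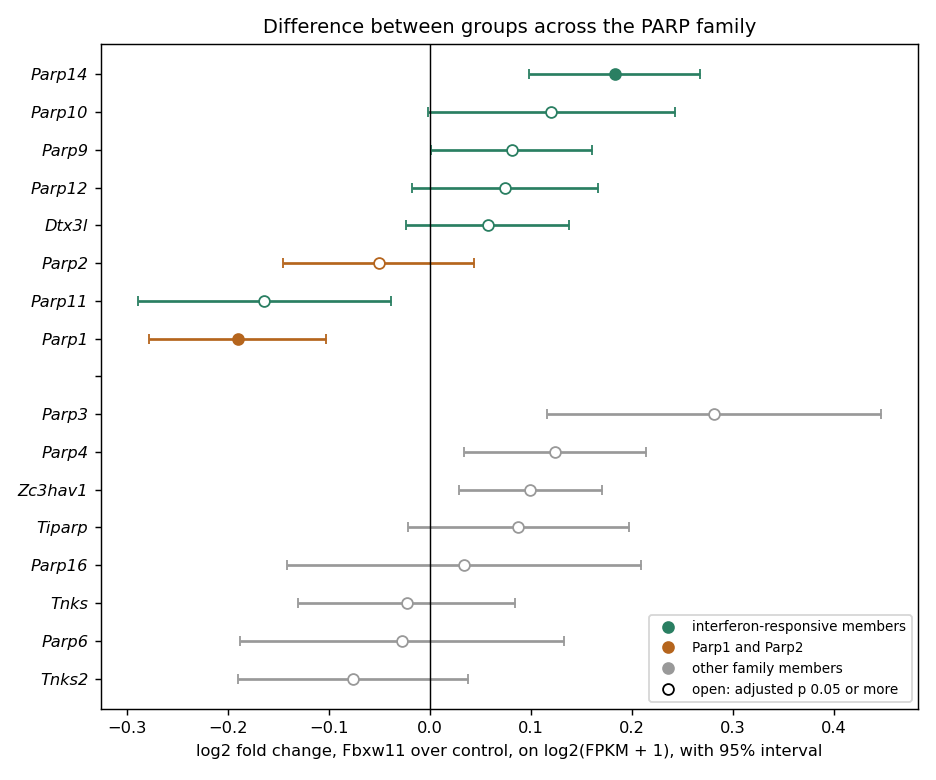
Log2 fold change of Fbxw11 over control on log2(FPKM + 1), with 95% intervals from limma, for the 8 tested members (upper block) and for 8 other PARP genes of the family (lower block); filled points have an adjusted p under 0.05. Parp14 at 0.18 and Parp1 at -0.19 are the filled points, at opposite ends of the upper block.

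RefSeq start regions were found for 6 of the 9 genes, 7 windows in all since Parp11 has 2 annotated starts 6.787 kb apart. The core of the interferon-stimulated response element, written as 2 copies of GAAA with any 2 bases between them, and the gamma-activated site bound by STAT factors, TTCNNNGAA, were searched on both strands. Each was found in 1 of the 7 windows, in both cases the upstream start of Parp11. Of all 32851 windows, 3.44% hold the first motif and 8.3% the second. The Parp11 windows are shown for this reason, on the forward strand of GRCm38.p6 at chr6:127446590-127446889 and chr6:127453377-127453676, and capitals mark the matched letters.
Parp11, upstream start: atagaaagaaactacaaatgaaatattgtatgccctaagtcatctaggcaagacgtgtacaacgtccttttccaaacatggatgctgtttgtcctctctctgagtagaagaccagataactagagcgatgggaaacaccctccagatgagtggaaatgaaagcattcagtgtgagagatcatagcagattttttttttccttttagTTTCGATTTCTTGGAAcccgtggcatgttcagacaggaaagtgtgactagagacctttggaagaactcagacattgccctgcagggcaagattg
Parp11, downstream start: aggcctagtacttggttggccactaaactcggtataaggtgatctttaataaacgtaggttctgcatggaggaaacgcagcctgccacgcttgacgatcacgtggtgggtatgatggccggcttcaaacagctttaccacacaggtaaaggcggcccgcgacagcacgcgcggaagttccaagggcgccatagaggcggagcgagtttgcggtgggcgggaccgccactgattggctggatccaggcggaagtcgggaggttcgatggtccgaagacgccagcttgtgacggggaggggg
The matched letters were TTTCGATTTC, beginning 44 bases before the start, and TTCTTGGAA, beginning 37 bases before it, and the 2 matches overlap. Which of the starts was in use cannot be read from values per gene.

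The Dtx3l start region is shown because it lies inside Parp9. Its window, chr16:35938978-35939277 on the reverse strand of GRCm38.p6, falls wholly within the annotated span of Parp9 on the forward strand, and 229 of its 300 bases are Parp9 exon in GENCODE. It held no match to either interferon motif.
Dtx3l: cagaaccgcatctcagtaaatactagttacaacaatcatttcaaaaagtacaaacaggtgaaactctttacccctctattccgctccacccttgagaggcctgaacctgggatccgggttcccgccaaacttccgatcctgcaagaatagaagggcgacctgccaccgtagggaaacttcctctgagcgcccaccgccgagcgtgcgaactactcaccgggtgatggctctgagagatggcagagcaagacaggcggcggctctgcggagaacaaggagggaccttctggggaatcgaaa

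Dtx3l and Parp9 are thus annotated head to head with overlapping starts. In the table's own coordinates, most of which differ from those of the mm10 build that the submitters name, Parp14 lies on chromosome 16 at 35653244 to 35691914 (reverse strand), Dtx3l at 35746881 to 35759521 (reverse strand) and Parp9 at 35758840 to 35792975 (forward strand). Parp9 and Dtx3l overlap by 682 bases, of which 458 are exonic in both in GENCODE, 9.4% of the exonic length of Parp9 and 8% of that of Dtx3l. The labels do not say whether strand was used in counting, so reads in this stretch cannot be told apart. Parp10 likewise shares 205 exonic bases with Plec on the same strand, 4.8% of its exonic length, and Plec stood at 9.66 ± 0.675 and 9.58 ± 0.500 FPKM.

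The other members lie apart from this stretch. In the same coordinates Parp1 is on chromosome 1 at 180396489 to 180428819 (forward strand), Parp2 on chromosome 14 at 51045298 to 51058758 (forward), Parp8 on chromosome 13 at 116991356 to 117162073 (reverse) and Parp10 on chromosome 15 at 76115374 to 76127641 (reverse). Parp11 and Parp12 share chromosome 6, at 127423803 to 127471224 (forward) and 39063344 to 39095283 (reverse).

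The ratio of Parp9 to Dtx3l, which does not depend on library scaling, was 2.23, 2.37 and 2.32 in control and 2.26, 2.46 and 2.302 in Fbxw11 libraries. These overlap, with a difference in mean log2 ratio of 0.02 beside SDs of 0.046 and 0.062 (n = 3 each). Of the genes within 200 kb of the Parp14 to Parp9 stretch, Kpna1, Wdr5b, Fam162a and Ccdc58 were also tested, all on the Parp9 side. None passed, with log2 fold changes of -0.04, 0.01, -0.12 and 0.09 and adjusted p of 0.670, 0.958, 0.496 and 0.2998 by limma. At an unadjusted p under 0.05 there was 0 of these 4, and voom called 0.

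**Figure D3:**
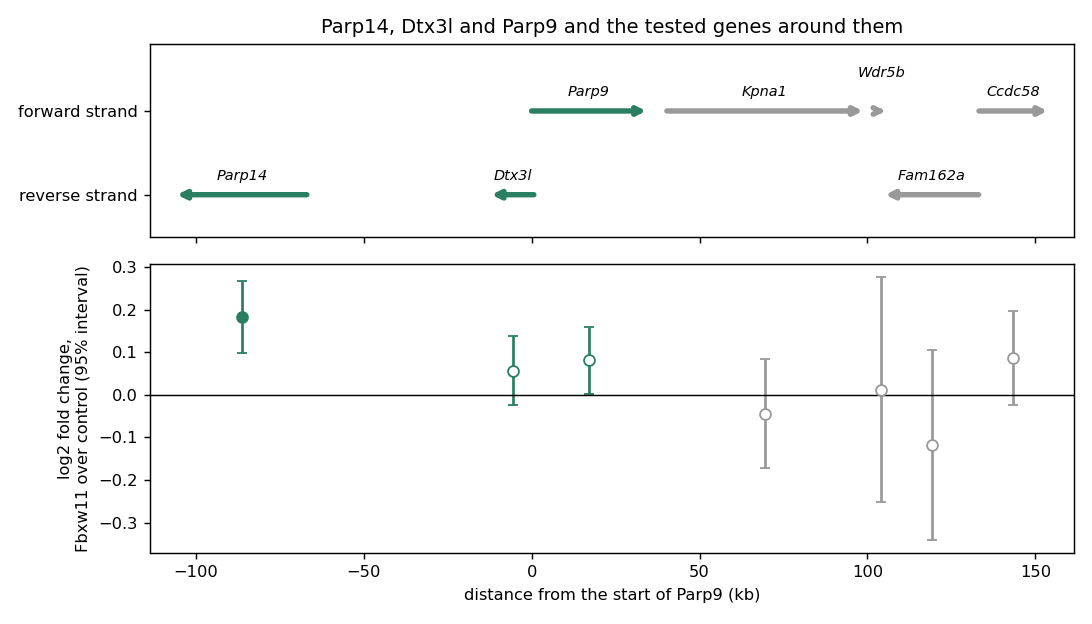
Upper panel: Parp14, Dtx3l, Parp9 (green) and the 4 other tested genes around them (grey), drawn by distance in kb from the start of Parp9, with arrows for the direction of transcription. Lower panel: log2 fold change of each gene, Fbxw11 over control, with its 95% interval; Parp14 is the filled point, past the threshold, and intervals of the grey genes include 0.

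Within each library, the interferon-responsive genes were also set against the other 3, a difference given here without a test. The mean log2(FPKM + 1) of the 6 interferon-responsive genes was 4.88, 4.89 and 4.901 in control and 4.95, 4.93 and 4.97 in Fbxw11 libraries. That of Parp1, Parp2 and Parp8 was 3.07, 3.09 and 3.04 in control and 3.02, 2.97 and 2.98 in Fbxw11 libraries. The difference between the 2 subgroup means was 1.82, 1.802 and 1.86 in control and 1.93, 1.96 and 1.99 in Fbxw11 libraries, without overlap and 0.14 larger on average. It was between 0.12 and 0.15 under each pseudocount, scaling and left-out library tried, a range that concerns libraries and scales and not single genes. The means hold few genes, with Parp1 at a log2 fold change of -0.19 and Parp14 at 0.18. Parp11 went the other way from its subgroup (-0.16), and Parp8, untested at 0.226 FPKM, counts as much as Parp1. The members were chosen with earlier results of these data known. The ratio of Parp14 to Parp1 was 0.935, 0.979 and 0.882 in control and 1.197, 1.21 and 1.24 in Fbxw11 libraries, a pair named after the values were seen.

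**Figure D4:**
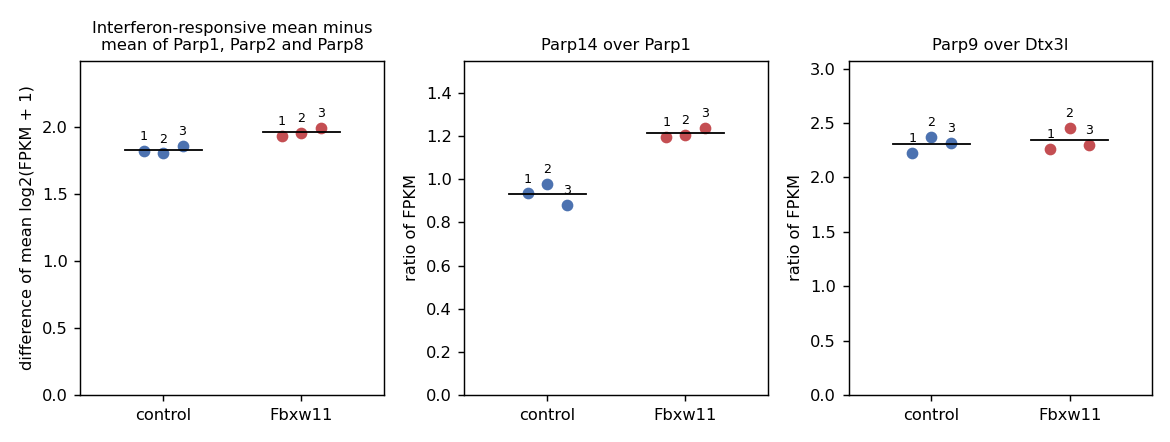
Per-library measures, control in blue and Fbxw11 in red, with replicate numbers and group means as lines, and vertical axes from 0. The difference of subgroup means (log2 scale) and the ratio of Parp14 to Parp1 do not overlap between groups, while the ratio of Parp9 to Dtx3l does.

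None of 8 other PARP genes, all of them tested, passed limma. Positive log2 fold changes were seen in 5 of the 8, and in 5546 of all 10898 tested genes. The median of the 8 was 0.06, beside 0.07 for the 8 tested members and 0.0029 for all tested genes. Zc3hav1, the zinc finger antiviral protein also called Parp13, was more abundant than any of the 9 members, at 85.7 ± 0.751 and 91.9 ± 1.77 FPKM (log2 fold change 0.10, limma adjusted p = 0.0926), control given first. Tiparp, a PARP induced by the aryl hydrocarbon receptor, stood at 25.2 ± 0.724 and 26.9 ± 1.33 FPKM (0.09, adjusted p = 0.297). Parp3, a DNA-break PARP named after its value was seen, had the largest difference of the 8, from 7.05 ± 0.550 to 8.78 ± 0.616 FPKM (0.28, limma adjusted p = 0.0543). It passed with voom on recovered reads (0.0191), with a minimum of 5 FPKM (0.0435), and without control library 3 (0.0456), Fbxw11 library 3 (0.0495) or both (0.0301). At an unadjusted p under 0.05 there were 3 of the 8 genes, Parp3, Parp4 and Zc3hav1, where 24.6% of all tested genes were under that value, and voom called 1, Parp3.

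Genes that remove or read ADP-ribose showed no call. Of 16 listed, 11 were tested and 0 passed limma, with a median log2 fold change of 0.05. At an unadjusted p under 0.05 there were 3 of the 11, Adprs, Nudt16 and Rnf146, named after their values were seen, a share close to the 24.6% of all tested genes, and voom called 0. Hpf1, the cofactor that directs Parp1 and Parp2 to serine residues, stood at 27.99 ± 1.26 and 28.4 ± 1.56 FPKM (0.02, 95% interval -0.11 to 0.14, limma adjusted p = 0.878), a sign that turned on the TPM scale and over plain read sums. Adprh, a hydrolase that frees arginine of ADP-ribose, stood at 26.7 ± 0.962 and 28.5 ± 2.19 FPKM (0.09, adjusted p = 0.406).

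Repair genes that act beside Parp1 at single-strand breaks and in base excision fell in 5 of 23 tested members, with 0 rises and a median of -0.10. Of all tested genes 4.64% fell. Those with the smallest p were Tipin, of the replication fork protection complex, from 29.3 ± 0.384 to 20.2 ± 1.06 FPKM (-0.51, limma adjusted p = 0.00175), Pcna, the sliding clamp of DNA polymerases, from 85.2 ± 2.03 to 66.1 ± 2.21 FPKM (-0.36, 0.00323), and Lig1, which joins Okazaki fragments, from 21.3 ± 0.959 to 15.3 ± 0.998 FPKM (-0.46, 0.00586). These 3 also serve DNA replication. The other 2, named after their values were seen, were the glycosylase Neil3 (-0.56) and Timeless (-0.34), the partner of Tipin. Of 17 cell cycle genes tested 15 fell and 0 rose (median -0.52), 14 without the libraries numbered 3, among them the helicase subunits Mcm6 and Mcm7, which fell by 0.64 and 0.54 on the log2 scale, and Rrm2, of ribonucleotide reductase, which fell by 0.71. Parp1 fell by 0.19 in the same libraries, and the part of the cell cycle genes in that difference was not tested.

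NAD, the substrate of all PARP reactions, is made and used by 26 listed genes, of which 14 were tested, 1 rose and 1 fell (median 0.07). With 4.6% of all tested genes higher and 4.64% lower, these counts are near what a list of this size holds. Sirt2, an NAD-dependent deacetylase, rose from 13.8 ± 0.627 to 16.4 ± 0.533 FPKM (0.24, limma adjusted p = 0.0237), and Nadk2, the mitochondrial NAD kinase, fell from 4.51 ± 0.218 to 3.59 ± 0.150 FPKM (-0.27, adjusted p = 0.0284). Without control library 1 or 2 the adjusted p was 0.0915 and 0.0939 for Sirt2 and 0.104 and 0.108 for Nadk2, and without Fbxw11 library 1, 2 or 3 it was 0.0738, 0.0643 and 0.0511 for Sirt2 and 0.0863, 0.0676 and 0.0632 for Nadk2. Both calls were also lost with no filter on low values (0.0547 and 0.0811), that of Sirt2 on the TPM scale (0.0515), and that of Nadk2 without both libraries numbered 3 (0.0690). Of the Deltex ligases related to Dtx3l, 1 of 3 tested rose, Dtx2, from 3.93 ± 0.402 to 6.07 ± 0.155 FPKM (log2 fold change 0.52, limma adjusted p = 0.00688). Dtx3 stood at 16.1 ± 0.348 and 16.99 ± 1.23 FPKM (adjusted p = 0.494).

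Interferon genes were taken as lists beside the responsive members. Of 14 tested receptor and signalling genes 4 rose and 0 fell (median 0.11), and 3 rose without the libraries numbered 3. Of all tested genes 4.6% rose and 4.64% fell. Ifnb1, interferon beta itself, rose from 8.22 ± 0.643 to 27.1 ± 0.735 FPKM, Stat2, a subunit of the factor that binds the response element, from 34.9 ± 0.889 to 44.1 ± 0.315 FPKM, and the kinase Jak2 from 10.6 ± 0.321 to 13.4 ± 0.624 FPKM (log2 fold changes 1.61, 0.33 and 0.32, limma adjusted p = 0.000146, 0.00274 and 0.00961). The other gene that rose, named after its value was seen, was the receptor chain Ifnar2 (0.20, limma adjusted p = 0.0352). It passed in 5 of 16 alternatives, with an adjusted p of 0.124 and 0.132 without control library 1 or 2, 0.0814, 0.0924 and 0.0823 without Fbxw11 library 1, 2 or 3, and 0.0773 on the TPM scale. Of 39 other interferon-stimulated genes 18 rose and 0 fell (median 0.13), 14 without the libraries numbered 3. The smallest p were those of Oasl1 (log2 fold change 0.46), Ifit2 (0.69) and Ifit1 (0.59). With voom 19 rose and 1 fell, Trim30a, named after its value was seen (-0.22, adjusted p = 0.0526 by limma and 0.0059 by voom), which passed as lower in 5 of 16 alternatives. Without overlap between groups, 22 of the 39 were higher and 2 lower, where 15.6% and 15.5% of all tested genes were. The interferon-responsive PARP genes and Dtx3l had a median of 0.08, with 1 of 6 past the threshold. On the TPM scale their median was 0.035, where that of all tested genes was -0.038 in place of 0.0029. The list medians given above are on the deposited scale, so the 0.035 is not to be set against them.

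**Figure D5:**
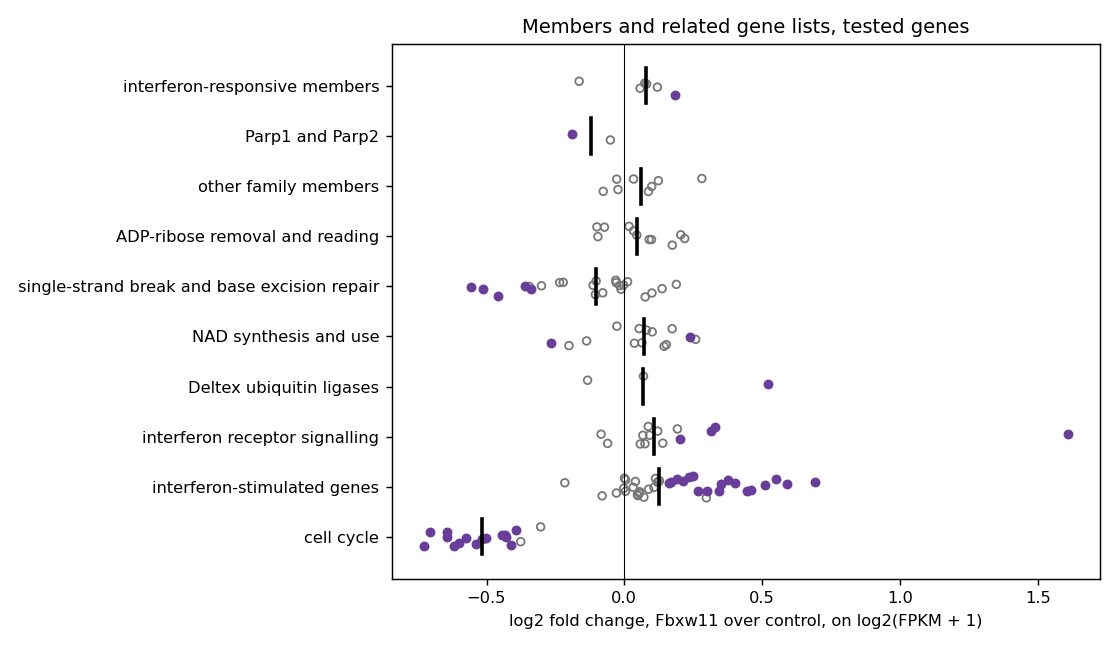
Log2 fold change of Fbxw11 over control on log2(FPKM + 1) for each tested gene of the members and of the related lists; filled points have an adjusted p under 0.05 and black bars are list medians. The medians are 0.08 for the interferon-responsive members beside 0.13 for other interferon-stimulated genes, and -0.12 for Parp1 and Parp2 beside -0.52 for the cell cycle genes.

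The genes whose profiles over the 6 libraries were most like those of the members were sought among 9518 tested protein-coding genes, by the root mean square distance between mean-centred log2(FPKM + 1) values. For Parp14 these were Rrbp1, a ribosome-binding protein of the endoplasmic reticulum (distance 0.0080), and the lysozyme gene Lyz2 (0.013), one of the macrophage markers above, beside a variation of Parp14 itself of 0.096 on that scale. For Parp1 they were Sgsm3 (0.021) and the cholesterol exporter Abcg1 (0.023), beside 0.1001. The nearest were Dnajb6 and Spcs3 for Parp12, Cwc27 and Sirt7 for Parp9, Lman2 and Exog for Parp10, Pdxk and Arl8a for Dtx3l, Elavl1 and Tmem97 for Parp2, and Eftud2 and Olfm1 for Parp11, at distances of 0.0072 to 0.018.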

How the data were processed

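The authors deposited 1 table of FPKM values per gene for the 6 libraries, with coordinates and gene lengths. The submitters' processing notes name the genome build mm10, while for the aligner and counter the sources used here name nothing. Of the table's gene identifiers in GENCODE for GRCm38, 2.76% share both start and end with it and 96.8% have the same span, so the table's coordinates may not be mm10 and are given as deposited. FPKM times length gave whole reads, within 0.02 reads, for 100% of values.

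The deposited FPKM values were tested with limma 3.58.1 (R 4.3.3) on log2(FPKM + 1), with a mean-variance trend, for genes averaging 1 FPKM or more. A fold change on this scale understates that of low genes. Alternatives were other pseudocounts, filters and scalings, voom with TMM factors on recovered reads, no trend, a replicate block, each library left out, and both libraries numbered 3 left out, the last chosen after seeing the data. The scripts were tested on simulated data. The members and lists were chosen with earlier results of these data known.

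Named genes were all 9 members, Fbxw11, up to 3 genes of each list with the smallest p past the threshold (filled to 2 with the most abundant), and the 2 nearest profiles of each tested member. Others are said to be named after their values were seen. Start regions came from RefSeq (GRCm38.p6).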

Additional observations from a re-analysis of the deposited data

How the results depend on the processing

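No tested member changed sign in any of the 16 alternatives, and the calls of Parp14 and Parp1 were each kept in 8 and lost in 8. The size of small differences depended on the scaling: on the TPM scale the log2 fold change of Dtx3l went from 0.057 to 0.016, Parp12 from 0.074 to 0.032, Parp9 from 0.081 to 0.039, Parp10 from 0.12 to 0.080 and Parp2 from -0.051 to -0.096. The median of the interferon-responsive members went from 0.078 to 0.035, or 0.041 over plain read sums, and that of Parp1 and Parp2 from -0.12 to -0.17 and -0.16. The library sizes behind the deposited FPKM were 1.014 to 1.018 times the summed reads in control libraries. In Fbxw11 libraries they were 0.987 to 0.993 times that sum. This factor drops out on the TPM scale and over plain read sums, where the median of all tested genes was -0.038 and -0.029. The number of members past the threshold, 2, was 1 on the TPM scale, 0 to 1 with a library left out, and 0 without both libraries numbered 3. Over all genes 1007 passed, 596 with no filter on low values and 410 to 801 with a library left out, where fewer libraries were fitted. The replicate number as a block gave 621 genes and 0 members (Parp14 adjusted p 0.0712, Parp1 0.0775, Sirt2 0.0600, Nadk2 0.0803, Ifnar2 0.0557). Same-numbered libraries had correlations of deviations of 0.036, 0.041 and 0.19, the last being the largest of all pairs. Control libraries 2 and 3 correlated best with the Fbxw11 library of their own number, and control library 1 with Fbxw11 library 2 (0.148). The labels name no pairing and these correlations do not settle it, so the block was kept as an alternative. The log2 fold change of Hpf1, 0.02, was -0.025 on the TPM scale, -0.019 over plain read sums and -0.026 to 0.046 with a library left out. With a library left out, the log2 difference of the Parp9 to Dtx3l ratio ranged from -0.012 to 0.046, and that of Parp8 from -0.020 to 0.041 FPKM. The cause of these ranges over left-out libraries was not tested. With 25 to 49 reads per library, depth limits what can be said of Parp8.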
